A study of Mus musculus with 6 samples.

Results

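Antioxidant and glutathione genes were described in heart ventricles of newborn mice on the first and the second day after birth. The set holds 36 genes: superoxide dismutases, catalase, glutathione peroxidases, peroxiredoxins, the thioredoxin system, glutathione synthesis and recycling, glutathione transferases, NAD(P)H quinone and haem enzymes, and the regulators NRF2 and KEAP1. They were picked by symbol for their known roles, with earlier results of these data known, and all 36 were found among the 39171 genes of the deposited table. Poly(A) RNA was sequenced from unmanipulated wild-type mice of the outbred CD-1 stock, from ventricles without other parts of the heart, in 3 libraries at 1 day of age (P1) and 3 libraries at 2 days of age (P2). The groups differ in age alone as far as the labels say, and neither carries a transgene, a deletion or a treatment. The question put to these genes was whether their transcripts differed between the days. Levels are in FPKM, by its name fragments scaled to transcript length and to mapped fragments. How the libraries were scaled to each other is not stated. The unit divides by length, so levels of different genes can be set side by side, but only roughly. Of the members 8 share exon bases with another gene, and the strand setting is not stated. Whole tissue was used, so fewer cells of a type and less RNA per cell cannot be told apart.

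Superoxide, which leaks from the mitochondrial respiratory chain, is turned into hydrogen peroxide by superoxide dismutases. Catalase, glutathione peroxidases and peroxiredoxins then remove the peroxide, the glutathione peroxidases at the cost of glutathione and most peroxiredoxins at the cost of thioredoxin, and both are reduced again with NADPH. NRF2 is the transcription factor that raises many of these genes under oxidative stress, and KEAP1 holds it down. At birth the heart moves from a low-oxygen to an oxygen-rich environment and turns from glucose towards fatty acids as fuel, which is why peroxide removal is studied in the newborn heart.

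The promoter of Txnip is shown because Txnip had the widest gap between the ages in the set. Its 250 bases before the start site lie at chr3:96557707-96557956 on the plus strand (RefSeq, GRCm38.p6). The first capitals mark a FoxO element (GTAAACA), 121 bases before the start. The second mark a carbohydrate response element, searched as CACGNG and CNCGNG with 5 bases of any kind between them, 85 bases before the start.
Txnip promoter: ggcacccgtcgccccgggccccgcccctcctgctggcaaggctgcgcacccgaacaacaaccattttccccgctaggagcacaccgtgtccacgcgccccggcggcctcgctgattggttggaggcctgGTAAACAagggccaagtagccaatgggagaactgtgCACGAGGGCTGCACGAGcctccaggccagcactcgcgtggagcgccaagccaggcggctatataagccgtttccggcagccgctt
Both strands were searched in windows from 250 bases before to 50 after a start, and both motifs were picked after the values of Txnip were known. The carbohydrate form was found in 120 of 32851 mouse windows (0.365%), and among the 30 members with a window it was found in Txnip only. The FoxO letters were found in 1199 windows (3.65%), and likewise in Txnip only among the members. A match is a run of letters and was not tested as a binding site.

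The antioxidant response element, the sequence through which NRF2 acts, was searched as TGACNNNGC on both strands. It was present in 7 of the 30 members with a window (Gclm, Mgst1, Nfe2l2, Prdx1, Sod1, Srxn1 and Txnrd1) and in 12.4% of all windows. The 30 members have 40 windows, so the count of genes and the share of windows are unlike measures. A stretch around it is shown for 3 genes known as NRF2 targets and for Nfe2l2 itself, since their levels are set side by side further on. Capitals mark the element, which reads as its reverse complement GCNNNGTCA in Gclm, Prdx1 and Txnrd1. They begin 134 bases before the start in Gclm (chr3:122245403-122245451, plus strand), 133 in Prdx1 (chr4:116685446-116685494, plus strand), 92 in Txnrd1 (chr10:82859094-82859142, plus strand) and 240 in Nfe2l2 (chr2:75704875-75704913, minus strand).
Gclm: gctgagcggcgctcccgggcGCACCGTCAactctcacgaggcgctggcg
Prdx1: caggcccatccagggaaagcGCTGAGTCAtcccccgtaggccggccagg
Txnrd1: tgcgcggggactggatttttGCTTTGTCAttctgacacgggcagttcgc
Nfe2l2: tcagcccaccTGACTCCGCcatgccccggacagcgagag

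None of the 36 genes passed the test of P2 against P1 (limma on log2(FPKM + 1), Benjamini-Hochberg adjusted p under 0.05 over the 13624 genes whose mean reached 1 FPKM). The same test called 22 of all genes tested, 0.161%. Among them was Tnnt2, which was listed at 0 in each P1 library. With genes listed at 0 in any library left out, a setting chosen after the data were seen, 111 genes were called. All 36 members passed the filter on low levels. At an unadjusted limma p under 0.05 there were 8 members, 4 higher (Sod2, Prdx1, Gpx7 and Txn1) and 4 lower (Txnip, Cat, Gpx3 and Gclm) in P2. This is 22.2% of the set, and 18.6% of all tested genes reached it, with 10.7% higher and 7.89% lower. Every P2 value lay above every P1 value for 7 members (19.4%, against 14.4% of all tested genes) and below for 4 (11.1%, against 10.6%). These shares are near those of all genes. The log2 change was above 0 for 20 members (55.6%, against 54.7% of all tested genes), and its median was 0.02, against 0.01 over all genes.

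Most of the set lay within a narrow band. In 22 of the 36 genes the log2 change was under 0.1 in size, and only Txnip, Gpx3 and Hmox1 reached 0.25. Txnip stood at -1.25 and was 1 member of 36 with a log2 change of 1 or more in size, a size found in 2.08% of all tested genes. A change larger than that of Txnip was found in 1.55%. The plot of changes by role shows Txnip apart from the rest.

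**Figure D1:**
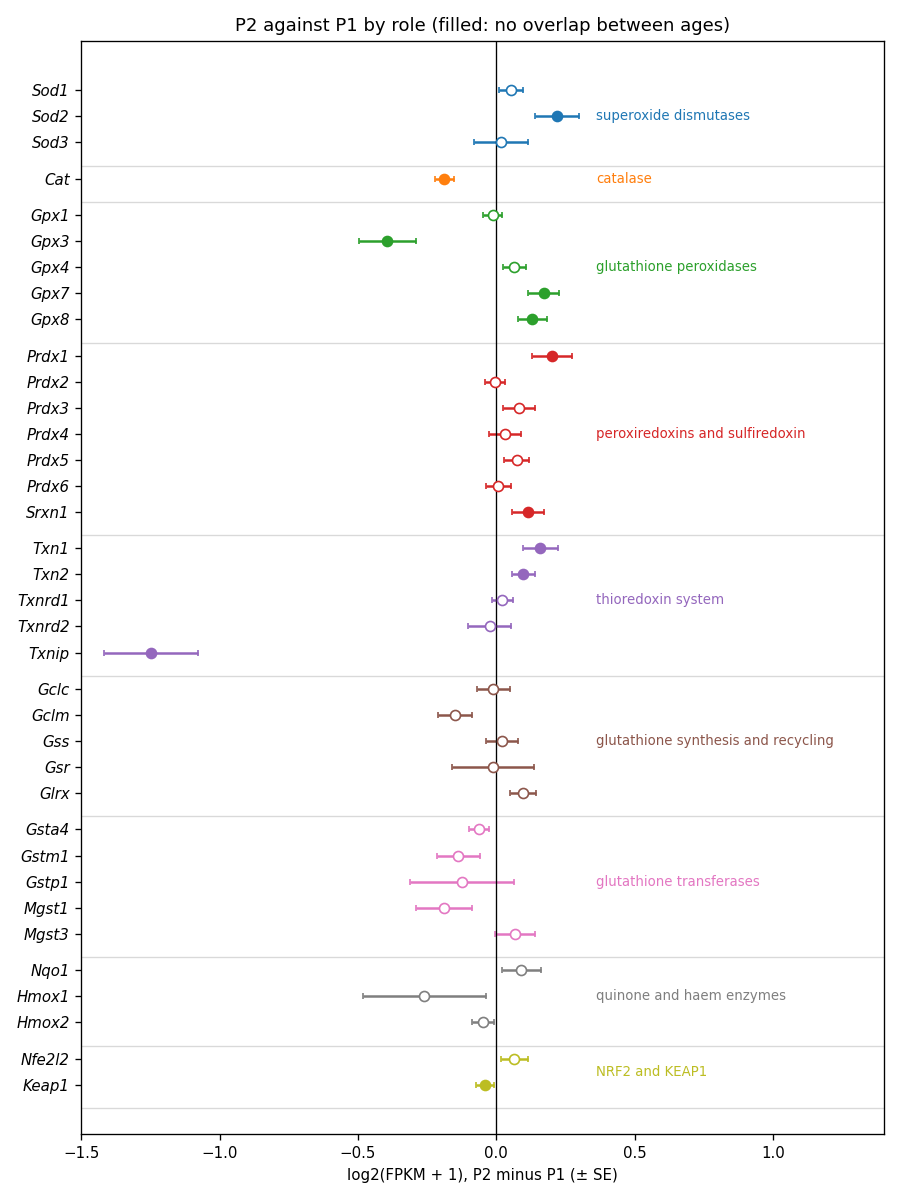
Log2 change of each of the 36 genes from P1 to P2 (x axis, log2(FPKM + 1) of P2 minus P1, with the standard error from limma, n = 3 libraries per age), grouped by role. Filled points are the 11 genes whose ages do not overlap, Txnip lies at -1.25, and with libraries rescaled to equal FPKM sums 17 of the 20 points above 0 move below it.

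The scale between libraries matters for the direction of small changes. The sum of all FPKM values was between 716968 and 754510 in P1 and between 807632 and 858436 in P2. Transcripts of the mitochondrial chromosome held 30.8%, 34.5% and 32.2% of the P1 sums. Their share of the P2 sums was 38.2%, 33.6% and 39.5%. P2 replicate 2 thus lay within the P1 range, while P2 replicates 1 and 3 lay above it. Equal sums scale each library by a total that includes these transcripts. Their part in the shift described next was not tested. When libraries were rescaled to equal sums, the median over all genes moved from 0.01 to -0.14 on the log2 scale, and the median over the members from 0.02 to -0.14. On that scale only Sod2 (0.05), Prdx1 (0.03) and Gpx7 (0.01) stayed above 0, 10 members were called, each lower in P2, and 2433 of all genes were called. Under median ratio scaling, and also under quantile normalization, 0 members were called and 19 were above 0. Other changes below are as deposited, and ratios of genes within a library, which a single factor per library does not alter, are given further on.

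**Figure D2:**
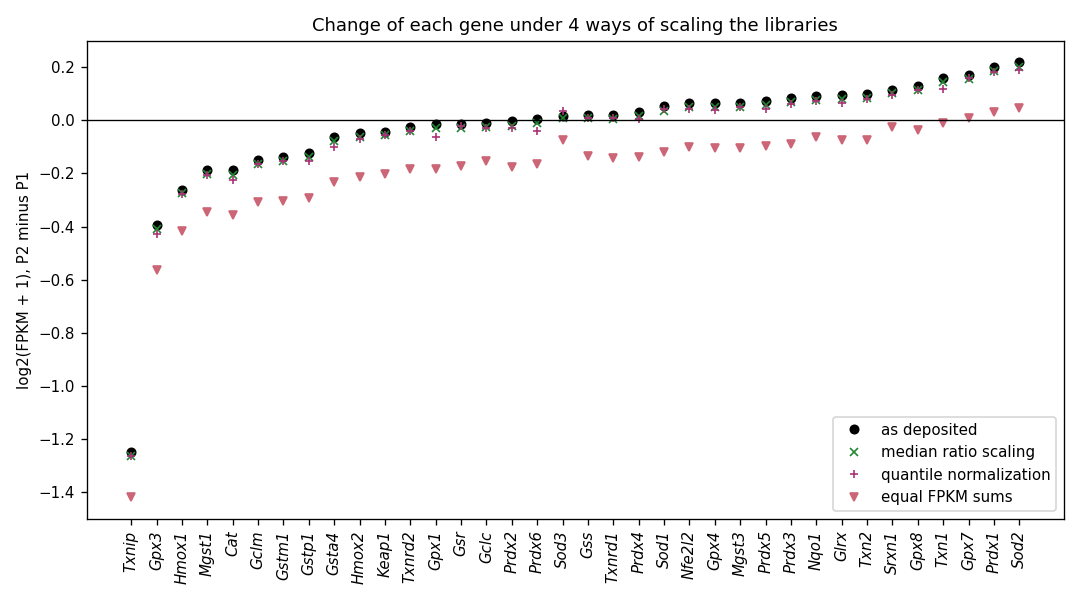
Log2 change from P1 to P2 of each gene (y axis, log2(FPKM + 1)) as deposited, with median ratio scaling, with quantile normalization and with equal FPKM sums. The first 3 lie close together, while equal sums lower each gene, by about as much as the median of all genes (to -0.14).

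Txnip encodes thioredoxin-interacting protein, which binds and inhibits thioredoxin and also restrains glucose uptake. Its gene (ENSMUSG00000038393) spans 96557957 to 96561883 of chromosome 3 by GENCODE M21 (GRCm38), on the plus strand. The levels were 321, 276 and 397 FPKM in P1 replicates 1 to 3 and 126, 123 and 167 FPKM in P2 replicates 1 to 3. The lowest P1 library was thus well above the highest P2 library, and the P2 mean was 0.419 of the P1 mean. With SD over 3 libraries the P1 mean was 331 ± 61.4 FPKM and the P2 mean 139 ± 24.5 FPKM. On the log2 scale this was -1.25 with a standard error of 0.17 (limma adjusted p = 0.0759). At P1 Txnip was the most abundant gene of the set in 2 of 3 libraries, and at P2 it lay below Prdx2, Gpx4, Prdx1, Sod1, Prdx3, Prdx5 and Sod2 by its mean. The gene missed the threshold here. Of the scaling and gene filter settings, it passed with equal FPKM sums (limma adjusted p = 0.0220), and when genes listed at 0 in any library were left out (limma adjusted p = 0.0199), a setting chosen after the data were seen. Over all 13 other settings the adjusted p ran from 0.0199 to 0.255 and the log2 change from -1.42 to -1.11. The antisense gene Gm15441 shares 606 exon bases with Txnip on the opposite strand and was at 1.17 ± 0.671 FPKM in P1 and 0.966 ± 0.178 in P2.

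**Figure D3:**
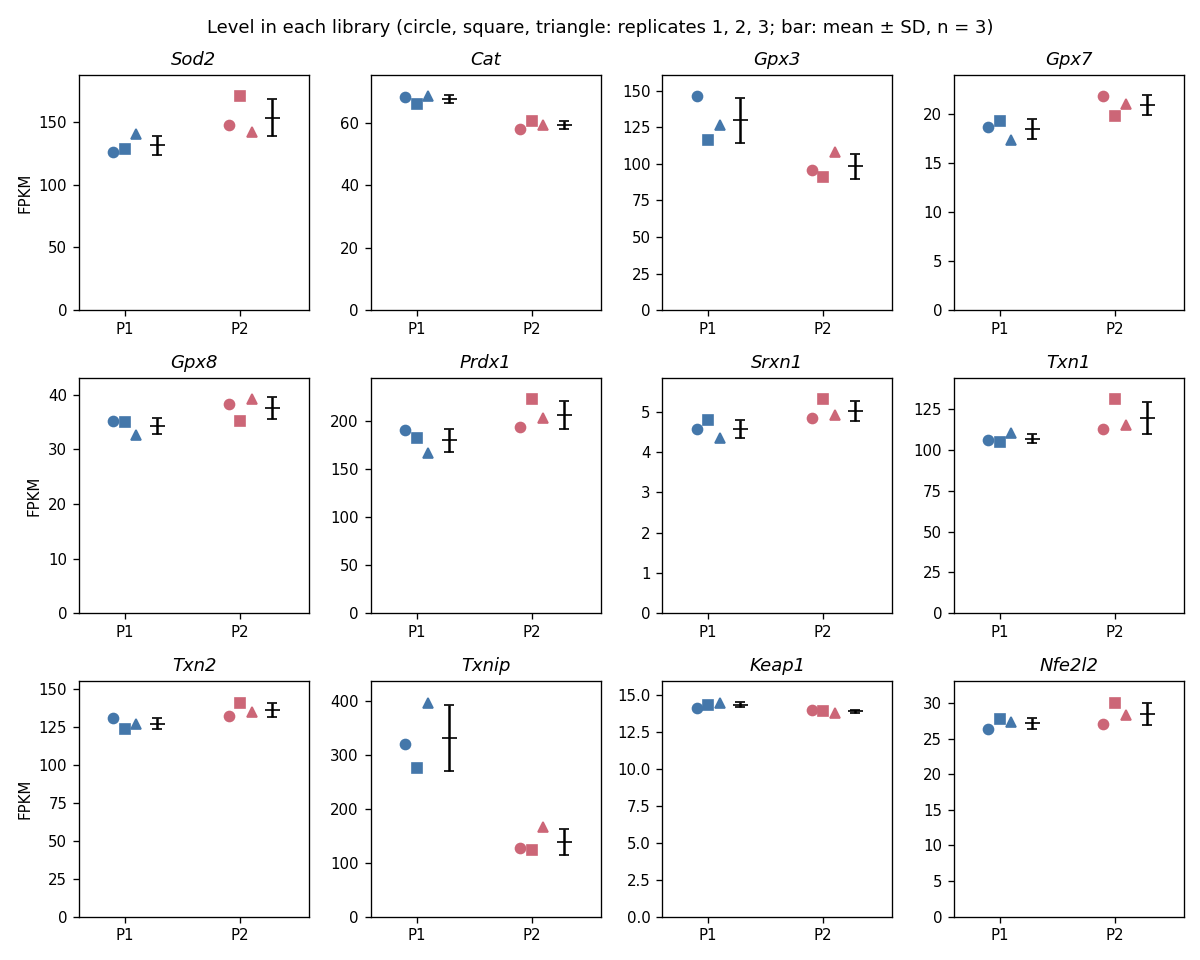
FPKM (y axis, from 0) in each library at P1 and P2 for the 11 genes whose ages do not overlap, and for Nfe2l2. Circles, squares and triangles are replicates 1, 2 and 3, bars are mean ± SD (n = 3), and the widest gap is that of Txnip (276 to 397 against 123 to 167 FPKM).

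Of the thioredoxin system proper, Txn1, the cytosolic thioredoxin, was at 106, 105 and 110.3 FPKM in P1 and at 113, 131 and 115 FPKM in P2. The ages did not overlap, though P1 replicate 3 and P2 replicate 1 were close, and P2 replicate 2 stood above the rest. The log2 change was 0.16 ± 0.06 (limma adjusted p = 0.262), and -0.01 with equal sums. Txn2, the mitochondrial thioredoxin, was at 131, 124 and 127 FPKM in P1 and 132, 141 and 135 in P2 (0.10 ± 0.04, limma adjusted p = 0.271; -0.07 with equal sums). Its ages did not overlap, but its highest P1 library and its lowest P2 library were nearly level. For the reductases that recharge thioredoxin the ages overlapped. Txnrd1, the cytosolic form, was at 21.7 ± 0.237 and 22.1 ± 0.797 FPKM, and Txnrd2, the mitochondrial form, at 14.2 ± 1.05 and 13.98 ± 1.14.

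Superoxide dismutases were represented by a cytosolic, a mitochondrial and a secreted enzyme. Sod2, the manganese enzyme of the mitochondrial matrix, was at 126, 128 and 140.2 FPKM in P1 and at 147, 170.4 and 142 FPKM in P2. The ages did not overlap, with P1 replicate 3 and P2 replicate 3 nearly level. The change was 0.22 ± 0.08 on the log2 scale, the largest positive one of the set as deposited (limma adjusted p = 0.235), and 0.05 with equal sums. Without P2 replicate 2 it was 0.14. Sod1, the cytosolic copper and zinc enzyme, was the most abundant dismutase, at 171, 170.05 and 179 FPKM in P1 and 173, 185 and 182 in P2. Its ages overlapped (0.05 ± 0.04). Sod3, the secreted enzyme, was near the filter limit, at 1.09 ± 0.103 FPKM in P1 and 1.12 ± 0.119 in P2. All 3 dismutases had a positive log2 change as deposited, and 1 of 3 with equal sums.

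Catalase, the peroxisomal enzyme that splits hydrogen peroxide without a cofactor to recharge, varied little between libraries of an age. Cat was at 68.2, 66.1 and 68.4 FPKM in P1 and at 57.9, 60.5 and 59.1 FPKM in P2. Each P2 library lay below each P1 library. The means with SD over 3 libraries were 67.6 ± 1.30 and 59.2 ± 1.28 FPKM, and the log2 change was -0.19 ± 0.03 (limma adjusted p = 0.118). The value was negative under all 14 settings, from -0.36 to -0.17, and was called with equal sums only (limma adjusted p = 0.0237). As for Txnip, the lower P2 values came with lower red cell and epicardial markers. They were not alone in this. Atrial markers, described below, were lower in P2 for 5 of 6. Macrophage markers were lower for 5 of 7 tested, and neutrophil and lymphocyte markers for 2 of 2 tested. Other lists went the other way, with 5 of 6 endothelial and 5 of 7 fibroblast markers higher in P2. The 8 red cell markers summed to 962, 974 and 1359 FPKM in P1 and 953, 911 and 755 in P2, with 5 of 5 tested lower, 0 called and none at 0. The 4 epicardial markers summed to 35.0 to 37.7 FPKM in P1 and 26.3 to 32.9 in P2, with 4 of 4 lower and 0 called. The part of any of these lists in the Txnip and Cat results was not tested.

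Among glutathione peroxidases the members went different ways. Gpx3, the secreted selenoenzyme of plasma, was at 146, 116 and 127 FPKM in P1 and 95.7, 91.1 and 108 FPKM in P2. The ages did not overlap, with P1 replicate 1 highest. The log2 change was -0.39 ± 0.10 (limma adjusted p = 0.157), -0.30 without P1 replicate 1, and -0.56 with equal sums. Transcripts that mark atrial muscle, which the ventricular dissection was to leave out, when summed also stood highest in P1 replicate 1 and lower in each P2 library. Their summed level was 1502, 953 and 990.2 FPKM in P1 replicates 1 to 3 and 547, 570.01 and 777 FPKM in P2. Single markers did not all follow the sum. Bmp10 and Nr2f2 were highest in P1 replicate 3, and Nppa in P2 replicate 2 (336 FPKM) lay above P1 replicates 2 and 3 (286 and 281). Of the 6 atrial markers 5 were lower in P2, Bmp10 was called, none was at 0, and their part in the Gpx3 result was not tested.

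Gpx4, the peroxidase that acts on lipid peroxides in membranes, was the most abundant of the family, at 256, 244 and 259 FPKM in P1 and 270.1, 269 and 255 in P2. Its ages overlapped. Gpx1, the main cytosolic form, was nearly level at 100.1 ± 1.95 and 99.1 ± 2.52 FPKM (log2 change -0.01 ± 0.04). Gpx7 and Gpx8 lie in the endoplasmic reticulum, where they use peroxide in protein folding. Gpx7 was at 18.7, 19.3 and 17.3 FPKM in P1 and 21.8, 19.8 and 21.01 in P2. Gpx8 was at 35.2, 34.9 and 32.5 FPKM in P1 and 38.3, 35.3 and 39.1 in P2. Both were without overlap, with P2 replicate 2 close to P1 in each. Their log2 changes were 0.17 ± 0.06 and 0.13 ± 0.05 (limma adjusted p = 0.205 and 0.272), and 0.01 and -0.04 with equal sums. In the family 3 of 5 were above 0 as deposited, and 1 of 5 with equal sums.

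Peroxiredoxins made up the largest share of the set by level, with a summed 905 ± 15.9 FPKM in P1 and 949 ± 40.1 in P2 with sulfiredoxin included. Prdx2, a cytosolic form that is also abundant in red cells, was at 293, 288 and 287 FPKM in P1 and 282, 296 and 288 in P2. It was the steadiest abundant member, with a log2 change of -0.0044 ± 0.03. It shares 177 exon bases with Rnaseh2a and 173 with Junb, both on the opposite strand. Prdx1, another cytosolic form and a known NRF2 target, was at 190, 182 and 166 FPKM in P1 and 194, 222 and 203 in P2. The ages did not overlap, with P1 replicate 1 and P2 replicate 1 close. The log2 change was 0.20 ± 0.07 (limma adjusted p = 0.228), and 0.03 with equal sums. It was 0.15 without P2 replicate 2.

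The other peroxiredoxins overlapped between ages. Prdx3, which is mitochondrial, was at 142 ± 8.69 and 151 ± 6.53 FPKM. Prdx5, found in mitochondria, peroxisomes and the cytosol, was at 139.96 ± 4.15 and 147 ± 6.04. It shares 409 exon bases with Trmt112 on the opposite strand. Prdx4 of the endoplasmic reticulum was at 61.1 ± 1.84 and 62.5 ± 4.27 FPKM, and Prdx6, which is recharged by glutathione, at 88.3 ± 1.84 and 88.7 ± 4.32. Srxn1, sulfiredoxin, which rescues overoxidized peroxiredoxins, was low at 4.57, 4.79 and 4.34 FPKM in P1 and 4.86, 5.31 and 4.92 in P2. Its ages did not overlap, and P1 replicate 2 and P2 replicate 1 were nearly level. Of these 7 genes 6 were above 0 as deposited, 5 with median ratio scaling or quantile normalization and 1 with equal sums.

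Glutathione is made by glutamate-cysteine ligase, the limiting step, and by glutathione synthetase. Gclc, the catalytic subunit of the ligase, was at 5.16 ± 0.345 FPKM in P1 and 5.10 ± 0.203 in P2. Gclm, its modifier subunit, was at 13.2, 11.8 and 13.6 FPKM in P1 and 11.5, 11.9 and 10.95 in P2. P1 replicate 2 lay within the P2 range. The log2 change of Gclm was -0.15 ± 0.06 (limma adjusted p = 0.266). Gclm shares 244 exon bases with the pseudogene Gm6061 on its own strand, which was at 0.109 FPKM over all libraries. Gss, glutathione synthetase, was at 10.7 ± 0.753 and 10.8 ± 0.331 FPKM and shares 395 exon bases with Acss2 on the opposite strand.

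Glutathione reductase, Gsr, which restores oxidized glutathione, varied more between libraries than between ages, with 17.3, 13.2 and 18.6 FPKM in P1 and 14.3, 18.8 and 15.4 in P2. Glrx, glutaredoxin, which removes glutathione from proteins, was the most abundant of this group at 54.1, 53.4 and 57.0 FPKM in P1 and 56.9, 61.8 and 57.3 in P2. P1 replicate 3 lay just inside the P2 range. In these 5 genes 2 were above 0 as deposited and 0 with equal sums.

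Glutathione transferases join glutathione to electrophiles such as products of lipid peroxidation. Mgst3, a membrane-bound form, was the most abundant, at 126, 112 and 122 FPKM in P1 and 126, 136 and 116 in P2, with wide overlap. Gsta4, which clears the lipid aldehyde 4-hydroxynonenal, was at 51.4 ± 0.942 and 49.1 ± 1.33 FPKM (log2 change -0.06 ± 0.04). Gstm1 was at 31.6 ± 3.03 and 28.6 ± 1.63 FPKM, and Mgst1 at 11.9 ± 1.15 and 10.3 ± 1.20. Gstp1 had outlying libraries at both ages, 126 FPKM in P1 replicate 2 and 112 in P2 replicate 3, with the other 4 between 79.5 and 88.5. Its near copy Gstp2 was at 1.98 ± 0.531 and 1.26 ± 0.204 FPKM, and fragments common to both genes make their split uncertain. Of the 5 transferases 4 were below 0 as deposited and 5 with equal sums, and none passed an unadjusted limma p of 0.05.

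The transcripts of NRF2 and KEAP1 were found at moderate levels. Nfe2l2, which encodes NRF2, was at 26.3, 27.8 and 27.4 FPKM in P1 and 27.03, 30.1 and 28.3 in P2, and the ages overlapped. Keap1 was at 14.1, 14.3 and 14.5 FPKM in P1 and 13.9, 13.9 and 13.8 in P2. The ages of Keap1 did not overlap, but the difference was small (log2 change -0.04 ± 0.03, limma adjusted p = 0.536). It shares 510 exon bases with the antisense gene Gm16754, which was at 0.552 FPKM over all libraries.

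Of the 12 members known as NRF2 targets (Nqo1, Gclc, Gclm, Srxn1, Txnrd1, Hmox1, Prdx1, Gsr, Gsta4, Gstm1, Gstp1 and Txn1) 5 were above 0 and 7 below, with a median log2 change of -0.01 (0.01 over all tested genes) and 0 called. With equal sums 1 of the 12, Prdx1, was above 0 and 11 were below. Of the genes shown above with an antioxidant response element, Prdx1 was at 0.20, Txnrd1 at 0.02, Gclm at -0.15 and Nfe2l2 at 0.06 on the log2 scale. Nqo1, the quinone reductase often read as a marker of NRF2 activity, was at 8.84 ± 0.218 and 9.50 ± 0.907 FPKM.

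The haem oxygenases, which break down haem, overlapped between ages. Hmox1, the inducible form, was at 9.99, 8.19 and 15.9 FPKM in P1 and 8.89, 8.15 and 9.99 in P2. A single library, P1 replicate 3, stood above the other 5, and without it the log2 change of -0.26 became -0.01. In that library red cell markers were also highest (1359 FPKM summed over 8 genes, 962 and 974 in the other P1 libraries, 755 to 953 in P2), as were macrophage markers (38.2 against 31.9 to 36.3) and neutrophil and lymphocyte markers (35.98 against 14.2 to 29.3). Their part in the Hmox1 value was not tested. Hmox2, the constitutive form, was at 28.7, 28.6 and 27.8 FPKM in P1 and 28.5, 27.0 and 26.7 in P2. It shares 892 exon bases with Cdip1 on the opposite strand, which was at 71.2 ± 0.534 and 66.9 ± 1.90 FPKM.

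**Figure D4:**
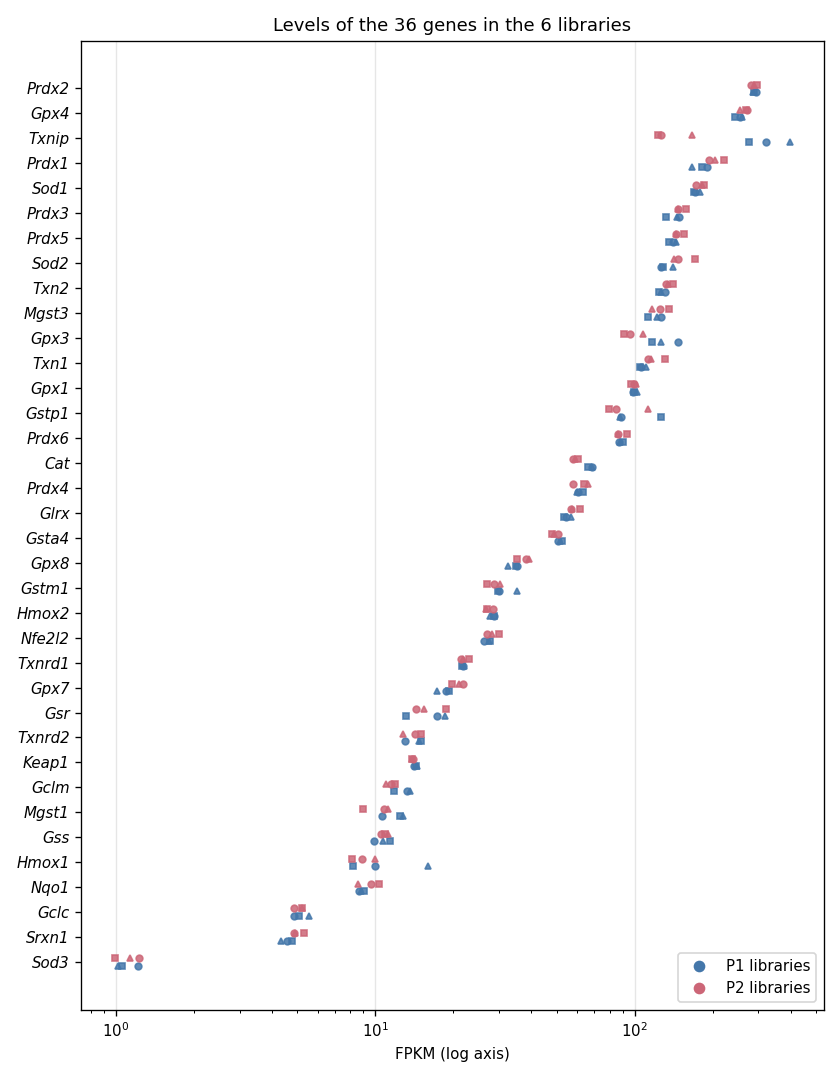
FPKM (x axis, log scale) of the 36 genes in the 6 libraries, ordered by mean level, with P1 libraries below and P2 libraries above each line. Circles, squares and triangles are replicates 1, 2 and 3, and the levels run from about 1 FPKM for Sod3 to 289 for Prdx2.

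Levels within the set spanned a wide range. By mean FPKM 12 genes were above 100, namely Prdx2, Gpx4, Txnip, Prdx1, Sod1, Prdx3, Prdx5, Sod2, Txn2, Mgst3, Gpx3 and Txn1. At the other end Sod3, Srxn1, Gclc and Nqo1 were below 10. Many neighbours in this order, such as Prdx3, Prdx5 and Sod2, had overlapping libraries, so their order is not resolved. In the sum over the set the P1 libraries were at 2930, 2833 and 3001 FPKM and the P2 libraries at 2713, 2853 and 2806.

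Libraries differed in how often they held the extreme value. P2 replicate 2 had the highest value of all 6 libraries for 17 of the 36 genes, where 27.5% of all tested genes were highest in it. The same library had the lowest value for 9 of the 36, among them Gpx3, Txnip, Mgst1 and Hmox1, and for 14.2% of all tested genes. Without it the log2 changes were 0.14 for Sod2, 0.15 for Prdx1 and 0.09 for Txn1.

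Ratios of members within a library were compared because a factor applied to a whole library, as in median ratio scaling or equal sums, cancels in them. Quantile normalization does not cancel, and the ratios are as deposited. Of 14 pairs, 5 did not overlap between ages, 1 higher and 4 lower in P2. The first genes of the 4 lower pairs, Cat, Gpx3, Txnip and Keap1, each lay below P1 without overlap by themselves. Those pairs are thus not separate from the results of the single genes. No share over other gene pairs was computed. An exact permutation test of 3 against 3 (two-sided) cannot go below p = 0.1, the value for the 5 pairs without overlap. The Benjamini-Hochberg adjusted p over 14 pairs was 0.28 for them. The ratio of Txnip to Txn1, inhibitor to thioredoxin, was 3.03, 2.64 and 3.60 in P1 and 1.12, 0.940 and 1.45 in P2, a log2 difference of -1.41. The FPKM level of the inhibitor was thus above that of thioredoxin in each P1 library, and in P2 replicate 2 it was below.

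Gpx3 to Gpx1 stood at 1.48, 1.17 and 1.24 in P1 and 0.964, 0.944 and 1.06 in P2 (log2 difference -0.38). Cat to Gpx1 went from 0.691, 0.665 and 0.669 in P1 to 0.583, 0.626 and 0.582 in P2 (-0.18). For Keap1 to Nfe2l2 the means were 0.527 ± 0.0105 and 0.488 ± 0.0272 (-0.11), with only a narrow gap, and -0.072 without P2 replicate 2. Prdx3 to Prdx2, the mitochondrial against the abundant cytosolic peroxiredoxin, was 0.492 ± 0.0278 and 0.522 ± 0.0118 (0.09), and the log2 difference was 0.040 without P1 replicate 2.

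The remaining 9 pairs overlapped. Sod2 to Sod1 was 0.735, 0.755 and 0.783 in P1 and 0.855, 0.920 and 0.782 in P2, so that P2 replicate 3 lay within P1 (exact permutation p = 0.2). The ligase subunits, Gclm to Gclc, were at 2.50 ± 0.201 and 2.25 ± 0.133 (exact permutation p = 0.2). Txn2 to Txn1 and Txnrd2 to Txnrd1, mitochondrial against cytosolic forms, were at 1.19 ± 0.0443 against 1.14 ± 0.0543 and at 0.655 ± 0.0504 against 0.633 ± 0.0431.

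**Figure D5:**
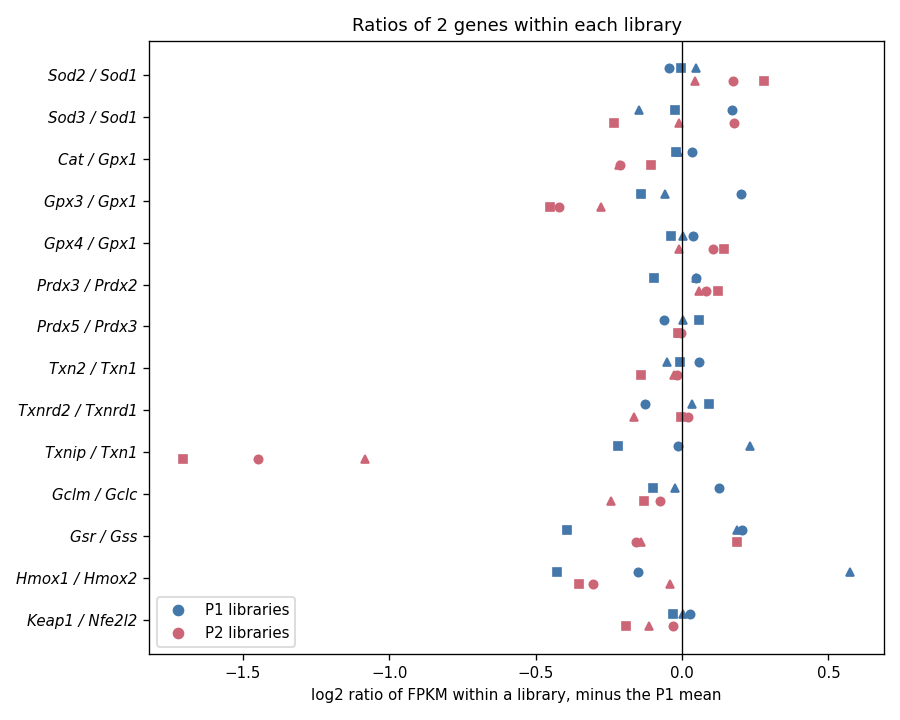
Ratio of the FPKM of 2 genes within each library (x axis, log2, minus the mean of the P1 libraries) for 14 pairs, with P1 libraries above and P2 libraries below each line and circles, squares and triangles for replicates 1, 2 and 3. Txnip to Txn1 lies at a mean of -1.41 in P2, and the P2 libraries lie apart from the P1 libraries in 5 pairs.

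By compartment the mitochondrial members (Sod2, Prdx3, Txn2 and Txnrd2) had 3 of 4 log2 changes above 0, with a median of 0.09 against 0.01 for all tested genes. With equal sums 1 of 4 was above 0. The members of the endoplasmic reticulum (Prdx4, Gpx7 and Gpx8) had 3 of 3 above 0, with a median of 0.13, and 1 of 3 with equal sums. The selenoproteins (Gpx1, Gpx3, Gpx4, Txnrd1 and Txnrd2), whose synthesis depends on selenium, had 2 of 5 above 0, with a median of -0.01, and 0 of 5 with equal sums, where Gpx1 and Gpx3 were called. As deposited none of these genes was called.

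Other genes of the same pathways numbered 95, of which 83 were tested, 0 were called by limma, 43 were above 0 and 40 below. Their median log2 change was 0.0029, and at an unadjusted limma p under 0.05 there were 11 higher and 6 lower. In peroxide, thioredoxin and methionine repair, 9 of 16 tested were above 0. Txnrd3, a thioredoxin and glutathione reductase, was at 12.9 ± 0.678 and 10.9 ± 0.352 FPKM (limma adjusted p = 0.140). Msrb1, a selenoprotein that repairs oxidized methionine, was at 32.8 ± 5.07 and 44.2 ± 3.53. Ccs, the chaperone that loads copper into Sod1, was at 17.1 ± 0.661 and 15.3 ± 0.442.

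In glutathione supply and use 8 of 17 tested genes were above 0. Chac2, an enzyme that degrades glutathione, was at 7.06 ± 0.195 FPKM in P1 and 8.66 ± 0.397 in P2 (log2 change 0.26 ± 0.05, limma adjusted p = 0.118). Ggct, of the same list, was at 2.88 ± 0.143 and 3.50 ± 0.120. Slc7a11, the cystine carrier, was under the filter. In NADPH supply 8 of 13 were above 0. Me3, a mitochondrial malic enzyme, was at 11.6 ± 0.616 and 15.1 ± 1.15 FPKM, and Mthfd2, a mitochondrial folate enzyme, at 5.37 ± 0.551 and 7.37 ± 1.14. Idh2, mitochondrial isocitrate dehydrogenase, was far more abundant at 899 ± 32.2 and 816 ± 30.5.

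Among genes of haem, iron and NRF2 partners 5 of 14 were above 0. Ftl1, the ferritin light chain, was at 269 ± 4.16 FPKM in P1 and 238 ± 2.12 in P2 (log2 change -0.18 ± 0.03, limma adjusted p = 0.115). Blvrb, biliverdin reductase B, was at 10.9 ± 0.570 and 12.7 ± 0.898, and Sqstm1, the autophagy receptor that binds KEAP1, at 84.5 ± 1.12 and 79.5 ± 0.585. Selenoprotein genes had 10 of 16 above 0, with Selenot at 67.9 ± 6.75 and 81.7 ± 4.98 FPKM. Sources of superoxide and peroxide had 3 of 7 above 0, with the oxidase Nox4 at 1.25 ± 0.0977 and 1.48 ± 0.0858 FPKM.

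Each library had 13355 to 13429 genes at 1 FPKM or more. The table holds no counts, so the absolute depth is unknown. The value of 1 fragment, read from genes below 0.05 FPKM, was 0.927 to 1.11 of that in P1 replicate 1. Correlations of log2 values across genes were 0.993 to 0.995 within an age and 0.989 to 0.993 between ages. Cardiomyocyte markers were abundant, with a sum of 12748 to 13280 FPKM in P1 and 13637 to 13817 in P2 without Tnnt2. Tnnt2 was listed at 0 in each P1 library and at 2681 to 3250 FPKM in P2. It was called on these values (limma adjusted p = 4.8e-08). Myh6 was listed at 0 throughout. The cause of these zeros was not tested, and the Tnnt2 call is not read here as a change with age. The sums for fibroblast markers were 752 to 868 and 850 to 931, and for endothelial markers 246 to 273 and 282 to 288. Fat markers were limited to Cidea, with Adipoq, Plin1 and Ucp1 at or near 0. The labels give 3 hearts per age and name no litters, so a p-value here reflects how these samples vary, which may be technical.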

How the data were processed

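Poly(A) RNA of ventricles was sequenced in 6 libraries, 3 per age, grouped by their titles. As deposited, 1 table holds FPKM values of 39171 mouse genes from the authors. The submitters' processing notes name TopHat2 and Cuffdiff 2.2.1. For build, annotation, strand setting and library scaling, no value is given in the sources used here. Symbols and positions came from GENCODE M21 (37605 identifiers matched, 1566 did not), and 14900 genes were at 0 in every library.

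The deposited FPKM values were tested with limma 3.58.1 (R 4.3.3) on log2(FPKM + 1), with age as the only factor, a variance trend, a mean of at least 1 FPKM (13624 genes) and Benjamini-Hochberg adjustment over all of them. Fold changes on this scale understate those of low genes. Within-library ratios were compared with exact permutation tests (scipy 1.17.1). Fits were tested on simulated data. Members and lists were chosen with earlier results of these data known. All members are named, with values per library where ages do not overlap and for the most abundant member of each role. Library values of other members, and Gstp2 and the genes that overlap members, were added after values were seen. Of each other pathway list up to 6 genes with the smallest p could be named, and the first 1 to 3 are given. Alternatives were another pseudocount, no filter, 3 other scalings, a replicate block, each library left out, and genes at 0 left out.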

Additional observations from a re-analysis of the deposited data

How the results depend on the processing

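The number of genes called was 22. It was 40 with a pseudocount of 0.1, 2433 with equal FPKM sums, 5 with the replicate block, 111 without genes listed at 0 in any library (chosen after the data were seen), and 5 to 19 with a library left out. Members called were 0, and became 10 with equal sums, 1 (Txnip) with the replicate block and 1 (Txnip) without genes at 0. With each library left out in turn they stayed at 0. The member median was -0.14 with equal sums and 0.0072 to 0.042 with a library left out. Members wholly above P1 numbered 0 with equal sums and 7 to 11 with a library left out. Those wholly below numbered 16 with equal sums, 7 with quantile normalization and 5 to 6 with a library left out. Leaving a library out cannot make separated ages overlap, so those counts can only stay level or rise. With equal sums the median over all tested genes was also -0.14. No share of all tested genes under the same setting is set beside these counts, so they are not read as results about the members.

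With equal sums these log2 changes turned negative: Sod1 -0.12, Sod3 -0.074, Gpx4 -0.11, Gpx8 -0.036, Prdx3 -0.088, Prdx4 -0.14, Prdx5 -0.097, Prdx6 -0.16, Srxn1 -0.027, Txn1 -0.011, Txn2 -0.073, Txnrd1 -0.14, Gss -0.14, Glrx -0.074, Mgst3 -0.10, Nqo1 -0.064 and Nfe2l2 -0.10. Prdx6 was at -0.0092 under median ratio scaling and -0.039 under quantile normalization. With a library left out the sign was not kept for Sod3 (-0.020 to 0.061), Gpx1 (-0.031 to 0.0052), Prdx2 (-0.023 to 0.012), Prdx4 (-0.0087 to 0.086), Prdx6 (-0.033 to 0.027), Txnrd1 (-0.0061 to 0.042), Txnrd2 (-0.083 to 0.036), Gclc (-0.047 to 0.032), Gss (-0.027 to 0.066), Gsr (-0.15 to 0.081) and Gstp1 (-0.27 to 0.047). The same held for the log2 ratios Sod3 to Sod1 (-0.12 to 0.084), Prdx5 to Prdx3 (-0.040 to 0.019), Txnrd2 to Txnrd1 (-0.11 to 0.0087), Gsr to Gss (-0.23 to 0.066) and Hmox1 to Hmox2 (-0.45 to 0.055). The cause was not tested.

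Deviations of same-numbered libraries had correlations of 0.0844, -0.0870 and -0.0110, and those of differently numbered ones ran from -0.0844 to 0.0899. No known pairs were at hand for comparison, so these values cannot decide whether the numbers pair the libraries. With the replicate block the Txnip limma adjusted p was 0.0381. Depth is unknown, and 3 libraries per age limit what small changes can be resolved.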

Other observations

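Some genes linked to Txnip were read after its values were seen, and are given as values. Arrdc4, an arrestin-domain relative of Txnip that is also raised by glucose-sensing factors, had a P1 mean of 7.13 ± 0.669 FPKM and a P2 mean of 7.12 ± 0.736 (SD over 3 libraries). Mlxip, which encodes the glucose-sensing factor MondoA, was at 9.62 ± 0.533 and 9.37 ± 0.675 FPKM. Mlxipl, which encodes its relative ChREBP, was at 8.05 ± 1.01 and 9.50 ± 0.937 FPKM. Mlx, their partner, was at 11.1 ± 0.454 and 12.5 ± 0.913 FPKM, without overlap between ages (limma adjusted p = 0.253). No gene of these 4 passed the adjusted limma threshold.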
